A study of Mus musculus with 6 samples.

Results

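BCL2 family transcripts that restrain or drive cell death were described in whole lung, with 10 genes taken by symbol from the 40842 named reference genes of the deposited tables. The 10 are the anti-death genes Bcl2, Bcl2l1 (BCL-XL), Bcl2l2 (BCL-W) and Mcl1, the pore-forming effector Bak1, and the BH3-only genes Bcl2l11 (BIM), Bid, Bad, Bik and Bmf. Bax, Bbc3 (PUMA) and Pmaip1 (NOXA), which p53 induces, were left out of the 10 and are given beside them. All 10 genes were found, each with a single entry in every table.

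Expression was measured by polyA RNA sequencing in 3 irradiated and 3 control libraries of whole lung from wild-type female C57BL/6N mice, a series about radiation pneumonitis. Irradiated mice had been exposed once to 9 MeV electrons at 20 Gy and controls were left untreated, and both groups carry the time label of 100 days. The labels give neither the exposed part of the body nor the age of the mice, nor whether each library is a mouse of its own. P-values therefore speak only to variation among these 6 libraries, part of which may be technical.

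Cells commit to death by the mitochondrial route when BAX or BAK forms pores in the outer mitochondrial membrane and cytochrome c escapes. Anti-death members hold BAX, BAK and the BH3-only proteins in check, and BH3-only proteins are the stress sensors that undo this restraint. Much of the family is controlled after transcription, by protein turnover, phosphorylation or cleavage, which RNA levels do not show.

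The tables imply 5.1 to 10.4 Gb of aligned sequence per library, with irradiated 2 the deepest, and 13467 to 14050 genes per library reached 1 FPKM (fragments scaled to transcript length and to the library's mapped fragments). All 9 defining lung markers were present in every library, among them Sftpc of alveolar type 2 cells at 8741 to 9588 FPKM in irradiated and 14677 to 16828 FPKM in control lung. Some libraries stood apart. The summed FPKM of 8 neutrophil markers was 221, 4772 and 1427 in irradiated 1 to 3, against 165, 76.4 and 506 in control 1 to 3. Irradiated 2 also had the highest sum of 7 red cell markers (6255 FPKM, against 1347 to 1709 in the other 5 libraries). Control 2 had the highest sums of cardiac muscle and adipose markers, 380.1 and 259 FPKM. In bulk tissue, fewer cells of a type and less RNA per cell cannot be told apart.

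None of the 10 members passed the test of irradiated against control lung. The largest differences were a higher Bcl2l1 (ratio of group means 2.14) and a lower Bik (0.683), and these were the 2 members whose groups did not overlap. With limma on log2(FPKM + 1), 0 of 10 members had an adjusted p under 0.05, against 25 of 13908 genes (0.18%; 0.0647% higher and 0.115% lower), and the smallest among members was 0.121. At an unadjusted p under 0.05 there was 1 of 10 members higher, against 7.41% of genes, and 1 of 10 lower, against 10.3%, in all 2 members against 17.7%. Irradiated libraries lay above all controls for 1 of 10 members, against 9.91% of genes, and below all controls for 1 of 10, against 14.6% (either way, 24.5% of genes). These shares are near those of all genes. With FPKM brought to 1 common sum per library, 5 of 10 members (Bcl2, Bcl2l1, Mcl1, Bid and Bik) had an unadjusted p under 0.05, against 2750 of 13908 genes, and without irradiated 1 there were 4 of 10 (Bcl2l1, Mcl1, Bid and Bik), against 2647. Under both settings 0 members passed the limma test after adjustment. All 10 members passed the minimum mean of 1 FPKM. Log2 changes were positive for 6 members and negative for 4, against 44.2% and 55.8% of genes, with a median of 0.07, against −0.03 over all genes tested.

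**Figure D1:**
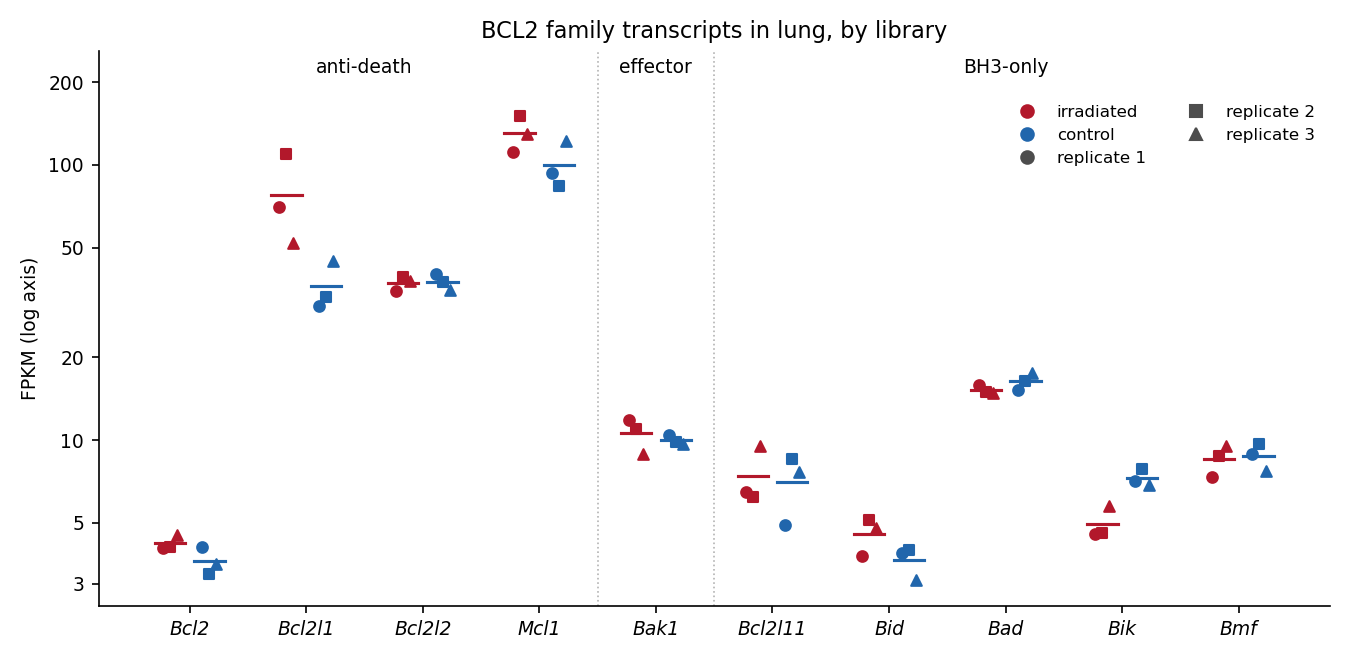
FPKM of each member (vertical log axis) in each library, irradiated left of control, with circle, square and triangle for replicates 1, 2 and 3 and a bar at the group mean. Bcl2l1 lay at 52.0 to 109.7 FPKM in irradiated libraries, above every control, and Bik at 4.54 to 5.74 FPKM, below every control.

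Per length, the family was dominated by Mcl1. In irradiated lung Mcl1 averaged 130.3 FPKM, followed by Bcl2l1 (77.4), Bcl2l2 (37.2), Bad (15.2), Bak1 (10.6), Bmf (8.53), Bcl2l11 (7.40), Bik (4.96), Bid (4.56) and Bcl2 (4.21). In control lung the order was Mcl1 (99.6), Bcl2l2 (37.5), Bcl2l1 (36.2), Bad (16.4), Bak1 (9.96), Bmf (8.76), Bik (7.26), Bcl2l11 (7.03), Bid (3.65) and Bcl2 (3.63). Bcl2l1 was thus clear of Bcl2l2 in irradiated lung, while the ranges of the pair overlapped in control lung. Neighbours in irradiated lung with overlapping ranges were Bak1 and Bmf, Bmf and Bcl2l11, Bik and Bid, and Bid and Bcl2. In control lung they were Bcl2l2 and Bcl2l1, Bmf and Bik, Bik and Bcl2l11, and Bid and Bcl2. Bcl2, the founding member of the family, had the lowest mean FPKM of the 10 in both groups. By a second measure, the scaled coverage described for Bcl2l1, Bcl2 averaged 4.12 in irradiated and 3.55 in control lung, above Bcl2l1, Bid and Bik in both groups.

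Bcl2l1 encodes BCL-XL, which holds BAX and BAK in check at the mitochondrion. It was at 70.6, 109.7 and 52.0 FPKM in irradiated 1 to 3, against 30.6, 33.2 and 44.7 FPKM in control 1 to 3. All irradiated values lay above all controls, with irradiated 3 and control 3 closest to each other. The log2 change was 1.03 ± 0.28 (SE; 95% interval 0.36 to 1.69; limma adjusted p = 0.153), and it was 0.75 without irradiated 2. BCL-XL is needed for the survival of developing red cells in the mouse. Irradiated 2, the library with the most Bcl2l1, also had the highest red cell and neutrophil sums. Irradiated 1, with the next highest Bcl2l1, had lower sums than control 3 (red cell 1442 against 1709 FPKM, neutrophil 221 against 506 FPKM). The part of red cells or neutrophils in the Bcl2l1 difference was not tested.

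The level of Bcl2l1 depends on how reads are spread over its transcripts. The tables also hold a per-base coverage, which was put on the FPKM scale with the commonest ratio of FPKM to coverage in its library. FPKM over this scaled coverage was 19.6 to 20.1 for Bcl2l1, against a median of 1.08 over 13426 genes, and 0.998% of those genes had a factor over 10. By scaled coverage Bcl2l1 was at 3.56, 5.53 and 2.65 in irradiated libraries, against 1.56, 1.65 and 2.28 in control libraries. The ratio of group means was 2.14 by both measures, but the level was far lower by scaled coverage. The irradiated mean of 3.92 was near that of Bid (3.61), and the control mean of 1.83 lay below that of Bid (2.90). The gene (chromosome 2, 152600652 to 152675723, minus strand, GRCm39) overlaps Cox4i2 on the opposite strand by 6306 bases at its downstream end, and Gm32211, at 0 to 0.0809 FPKM in irradiated and 0 to 0.0279 FPKM in control lung, by 365 bases. Cox4i2 was at 26.4, 34.7 and 24.3 FPKM in irradiated and 33.6, 29.8 and 39.9 FPKM in control lung. Each table also lists a locus assembled from each library, from 152622584 to 152675723, that stops short of Cox4i2. That locus had 70.5, 109.6 and 52.0 FPKM in irradiated and 30.6, 33.1 and 44.6 FPKM in control lung, nearly the values of the named gene. Its scaled coverage was 27.2, 42.3 and 20.1 in irradiated and 16.2, 17.6 and 17.1 in control lung, without overlap.

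**Figure D2:**
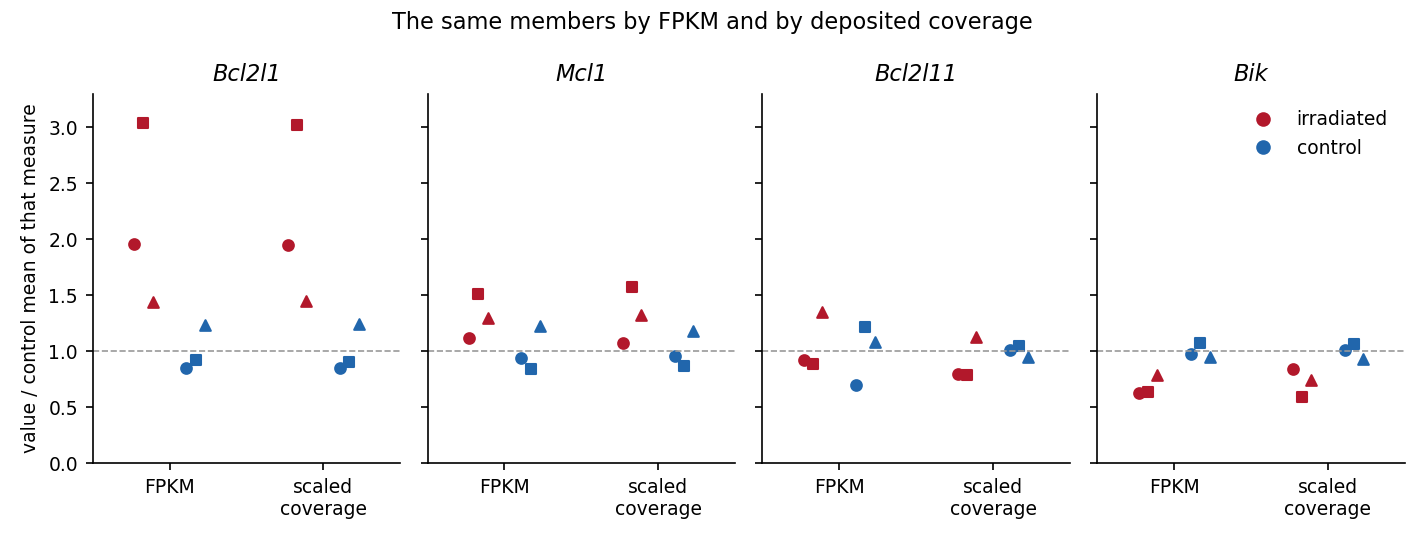
Values of 4 members in each library divided by the control mean of the same measure (vertical axis), by FPKM and by scaled coverage, with circle, square and triangle for replicates 1, 2 and 3. Bcl2l1 has the same picture by both measures, while Bcl2l11 in control 1 is the lowest point by FPKM and lies among the controls by scaled coverage.

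Mcl1 encodes a short-lived guard of the mitochondrion that many cells need, neutrophils in the mouse among them. It was at 111, 150.3 and 129 FPKM in irradiated 1 to 3, against 93.3, 83.6 and 122 FPKM in control 1 to 3. The groups overlapped, since control 3 exceeded irradiated 1. The log2 change was 0.39 ± 0.17 (95% interval −0.02 to 0.80; limma adjusted p = 0.302), and 0.17 without control 2 and irradiated 2. Mcl1 put the 6 libraries in the same order as the summed neutrophil markers, from control 2 at the low end to irradiated 2 at the high end. This was the 1 pair in the same order among 110 pairs of a member and a marker list. In all, 4 pairs had a rank correlation (Spearman) of at least 0.9 in size. The others were Mcl1 with red cell markers (0.94), and Bcl2l1 (−0.94) and Bik (0.94) with the summed defining lung markers. That lung sum was mostly Scgb1a1 and Sftpc. It was 28992 to 38613 FPKM in irradiated and 49979 to 62608 FPKM in control lung, without overlap. Bcl2l1 and Bik did not overlap between the groups either, which by itself fixes much of the rank order. What neutrophils or red cells contribute to the Mcl1 level was not tested. Mcl1 (chromosome 3, 95564017 to 95583553, plus strand) overlaps Adamtsl4 on the opposite strand by 43 bases. The largest assembled locus on the Mcl1 strand spanned the whole gene in irradiated 2 and 3, but only 95566032 to 95570490 in the other libraries. That locus had 111, 168 and 142 FPKM in irradiated and 102, 91.4 and 122 FPKM in control lung, with overlap. Its scaled coverage was 111, 64.5 and 53.8 in irradiated and 87.0, 78.2 and 122 in control lung. With unlike extents, these values are not comparable between libraries.

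Bcl2 and Bcl2l2, the remaining anti-death members, overlapped between the groups by FPKM. Bcl2, which is best known from lymphocytes, was at 4.05, 4.09 and 4.50 FPKM in irradiated and 4.08, 3.27 and 3.53 FPKM in control lung. Control 1 lay among the irradiated values, and the log2 change was 0.17 ± 0.11 (limma adjusted p = 0.459). With FPKM brought to 1 common sum per library the change of Bcl2 was 0.28 (limma adjusted p = 0.244). The summed FPKM of 6 B cell markers was 43.8 to 87.7 in irradiated and 71.5 to 99.6 in control lung, and that of 6 T cell markers was 23.4 to 47.2 in irradiated and 27.9 to 31.2 in control lung, both with overlap. Their part in the Bcl2 values was not tested. Bcl2l2, whose product BCL-W acts much like BCL-XL, was at 34.9, 39.0 and 37.8 FPKM in irradiated and 40.2, 37.4 and 35.0 FPKM in control lung. Its log2 change of −0.01 ± 0.09 had a 95% interval of −0.23 to 0.20 (limma adjusted p = 0.964), and it was 0.12 with FPKM brought to 1 common sum per library. By scaled coverage Bcl2l2 was at 23.2 to 23.4 in irradiated and 24.4 to 25.5 in control lung, without overlap (limma adjusted p = 0.528). Bcl2l2 (chromosome 14, 55120804 to 55136384, plus strand) shares 4785 bases with Pabpn1 on the same strand, so reads there cannot be told apart. An assembled locus on this strand ended at 55128130 in every library, short of these shared bases. It had 24.8, 29.5 and 27.2 FPKM in irradiated and 28.3, 24.6 and 23.1 FPKM in control lung, with overlap. Its scaled coverage overlapped as well, with irradiated 2 at 16.7 and control 2 at 14.9. In control lung this locus lay below Bcl2l1 (30.6 to 44.7 FPKM). Pabpn1 was at 49.2, 50.4 and 54.4 FPKM in irradiated and 58.8, 61.7 and 59.0 FPKM in control lung. Bcl2 lies on chromosome 1, 106465906 to 106642020, minus strand, and overlaps Gm37053 (11183 bases) and Mir3473f (136 bases) on the same strand, which were at 0 to 0.00324 FPKM in irradiated and 0 to 0.00389 FPKM in control lung.

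Bak1, the effector that BH3-only proteins activate, was at 11.8, 11.0 and 8.93 FPKM in irradiated and 10.4, 9.82 and 9.69 FPKM in control lung. The control values lay inside the irradiated range, and the log2 change was 0.07 ± 0.11 (limma adjusted p = 0.782). Bak1 (chromosome 17, 27238786 to 27247601, minus strand) lies wholly within Ggnbp1 on the opposite strand, which was at 1.18 to 2.08 FPKM in irradiated and 1.80 to 2.28 FPKM in control lung. Bax, the other effector, was at 62.1, 62.4 and 44.9 FPKM in irradiated and 35.1, 39.3 and 37.9 FPKM in control lung (log2 change 0.57 ± 0.14; limma adjusted p = 0.13).

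Bik, a BH3-only protein of the endoplasmic reticulum, had the smallest p of the 10. It was at 4.54, 4.59 and 5.74 FPKM in irradiated and 7.10, 7.82 and 6.86 FPKM in control lung, without overlap. The log2 change was −0.48 ± 0.12 (95% interval −0.75 to −0.20; limma adjusted p = 0.121), and −0.43 without irradiated 2. By scaled coverage Bik was at 0.662, 0.463 and 0.583 in irradiated and 0.794, 0.842 and 0.732 in control lung, again without overlap, with a ratio of means of 0.721. All these values lay under 1, and the fitted log2 change was −0.19 (limma adjusted p = 0.229). FPKM over scaled coverage was 6.87 to 9.91 for Bik, lowest in irradiated 1. The epithelial markers named here all had a ratio of means below 1, some with and some without overlap of the groups. None of them passed the test. Scgb1a1 of airway club cells was at 16267, 21332 and 26655 FPKM in irradiated and 44203, 37661 and 30981 FPKM in control lung. The 5 alveolar type 2 markers summed to 10130.5 to 11016 FPKM in irradiated and 16187 to 18346 FPKM in control lung, most of it Sftpc. Irradiated libraries lay below all controls for Sftpc, Lamp3 and Slc34a2, and also for Sftpb (ratio of means 0.777). The groups overlapped for Sftpa1 (ratio of means 0.984) and Abca3 (0.865). They also overlapped for Epcam, a marker of epithelium in general, and for Ager and Hopx of alveolar type 1 cells, with ratios of 0.835, 0.884 and 0.929. The part of epithelial cells in the Bik values was not tested. Bik lies on chromosome 15, 83410992 to 83428836, plus strand, and overlaps no other named gene.

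Bcl2l11 encodes BIM, which binds all anti-death members and can activate BAX and BAK directly. It was at 6.49, 6.22 and 9.49 FPKM in irradiated and 4.90, 8.56 and 7.63 FPKM in control lung, with wide overlap. The log2 change was 0.07 ± 0.22 by FPKM and −0.13 by scaled coverage (limma adjusted p = 0.898 and 0.658). The measures differed most in control 1, where FPKM was 1.29 times the scaled coverage, against 2.11 to 2.24 in the other 5 libraries, and the scaled coverage of 3.79 lay between the other controls at 3.91 and 3.56. Bcl2l11 (chromosome 2, 127967958 to 128004467, plus strand) begins inside the end of Acoxl on the same strand. In control 1 alone, the largest assembled locus on this strand ran through both genes. Acoxl, an acyl-CoA oxidase-like gene, was at 4.60, 5.08 and 7.50 FPKM in irradiated and 12.2, 11.2 and 12.7 FPKM in control lung (log2 change −0.98 ± 0.16; limma adjusted p = 0.0737).

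Bid, Bad and Bmf completed the BH3-only group. Bid, which caspase-8 cleaves to link death receptors to mitochondria, was at 3.78, 5.12 and 4.79 FPKM in irradiated and 3.88, 3.97 and 3.11 FPKM in control lung. Irradiated 2 and 3 lay above all controls and irradiated 1 did not (log2 change 0.25 ± 0.14; limma adjusted p = 0.389). Bad, which 14-3-3 proteins hold in the cytosol when phosphorylated, was at 15.8, 15.0 and 14.8 FPKM in irradiated and 15.2, 16.4 and 17.5 FPKM in control lung. The groups overlapped through irradiated 1 and control 1, and the log2 change was −0.10 ± 0.09 (limma adjusted p = 0.605) and 0.03 with a common sum. Bmf, which responds to loss of attachment, was at 7.34, 8.78 and 9.48 FPKM in irradiated and 8.89, 9.66 and 7.73 FPKM in control lung. Its values interleaved (log2 change −0.04 ± 0.12; limma adjusted p = 0.911), and the change was 0.08 with a common sum. Bid lies on chromosome 6, 120870080 to 120894074, Bad on chromosome 19, 6919229 to 6929273, and Bmf on chromosome 2, 118359238 to 118385280. Bad overlaps Gpr137 on the opposite strand by 590 bases.

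**Figure D3:**
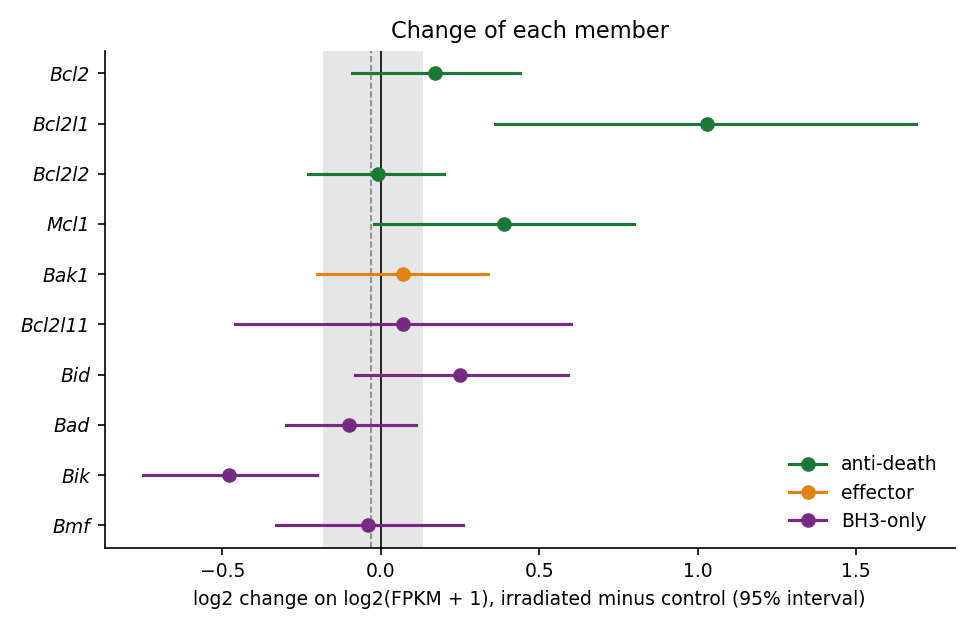
Difference of irradiated from control lung in log2(FPKM + 1) for each member (horizontal axis), with its 95% interval, by class. The band spans the middle 50% of all 13908 genes (−0.18 to 0.13) and the dashed line their median (−0.03). The intervals of Bcl2l1 and Bik exclude 0 before adjustment over all genes.

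Set against each other, the anti-death sum varied more than the pro-death sum. The 4 anti-death members summed to 221, 303 and 224 FPKM in irradiated and 168, 157 and 205 FPKM in control lung, so that every irradiated library lay above every control. The 6 pro-death members summed to 49.8, 50.8 and 53.2 FPKM in irradiated and 50.3, 56.2 and 52.6 FPKM in control lung, with overlap. Mcl1 made up 49.6 to 57.8% of the anti-death sum in irradiated and 53.1 to 59.5% in control lung. Bcl2l1 made up 32.0, 36.2 and 23.3% in irradiated and 18.2, 21.1 and 21.8% in control lung.

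The pro-death sum over the anti-death sum was 0.226, 0.168 and 0.238 in irradiated and 0.299, 0.357 and 0.256 in control lung. The groups did not overlap, with means of 0.210 ± 0.0376 and 0.304 ± 0.0505 (SD, n = 3 each), a log2 difference of −0.53. Without Bcl2l1 the log2 difference was −0.33 and the groups overlapped, with irradiated 1 at 0.332 and control 3 at 0.328. By scaled coverage, in which Bcl2l1 weighs little, the ratio was 0.453, 0.363 and 0.414 in irradiated and 0.492, 0.559 and 0.418 in control lung, with overlap and a log2 difference of −0.25. That small weight holds for the named gene only. Its assembled locus had a scaled coverage of 20.1 to 42.3 in irradiated and 16.2 to 17.6 in control lung, and no ratio was formed with it. The ratio describes RNA of mixed cells and no test was made of it. The median log2 change was 0.28 over the 4 anti-death members and 0.02 over the 6 pro-death members, against −0.03 over all genes tested.

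**Figure D4:**
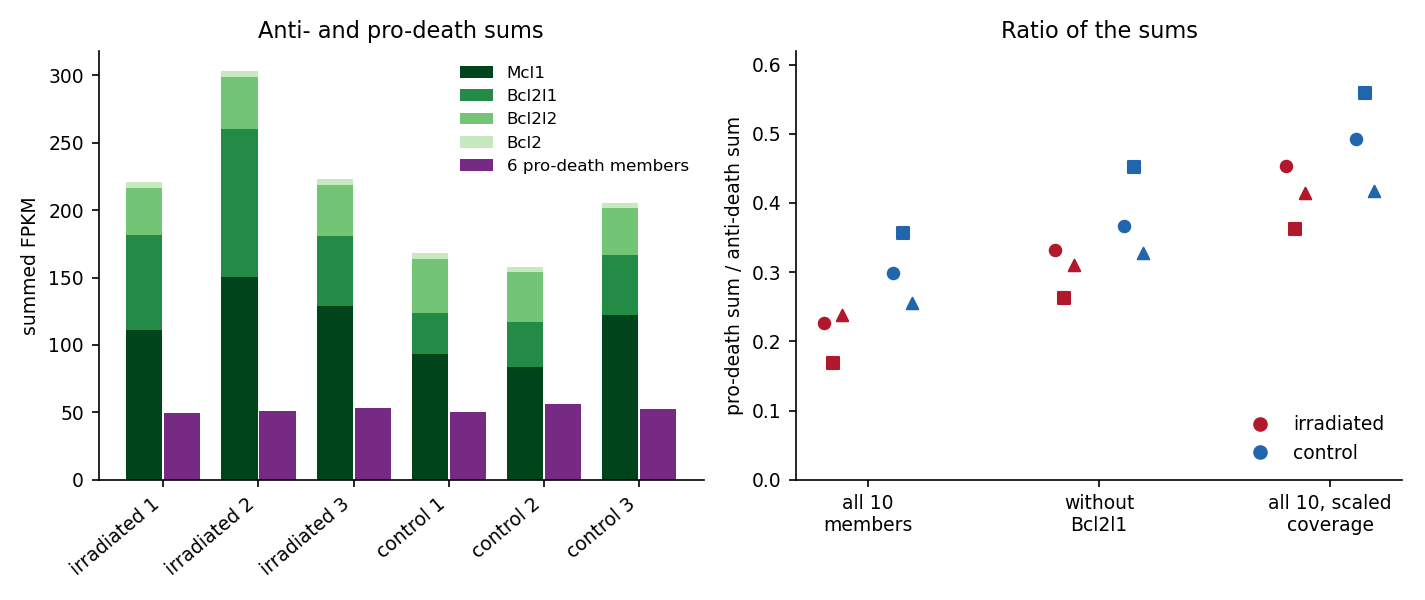
Left, summed FPKM (vertical axis) of the 4 anti-death members, stacked, and of the 6 pro-death members in each library. Right, the ratio of pro-death to anti-death sums (vertical axis) for all 10 members, without Bcl2l1 and by scaled coverage, with circle, square and triangle for replicates 1, 2 and 3. With all 10 members the irradiated ratios (0.168 to 0.238) lie below the controls (0.256 to 0.357), and in the other 2 columns the groups overlap.

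Promoter sequence was read for the members from the RefSeq promoter table of GRCm38.p6, a build other than that of the deposited tables. The 250 bases before each start were used, 15 windows of 9 members, and Bik had no entry. Shown are a single window of Bcl2l1, the member with the largest difference, and the Bcl2 window, the most GC-rich of the 15. For Bcl2l11 the window that holds a FOXO motif is shown. Capitals mark the GC box GGGCGG and the FOXO motif GTAAACA on either strand, and were chosen after the values were seen.
Bcl2l1, chr2:152831729-152831978, minus strand: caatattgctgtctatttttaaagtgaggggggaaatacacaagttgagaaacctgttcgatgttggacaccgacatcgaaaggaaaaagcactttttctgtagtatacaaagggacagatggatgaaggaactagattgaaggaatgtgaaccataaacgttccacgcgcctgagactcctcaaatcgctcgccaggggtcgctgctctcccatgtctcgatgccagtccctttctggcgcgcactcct
Bcl2, chr1:106714291-106714540, minus strand: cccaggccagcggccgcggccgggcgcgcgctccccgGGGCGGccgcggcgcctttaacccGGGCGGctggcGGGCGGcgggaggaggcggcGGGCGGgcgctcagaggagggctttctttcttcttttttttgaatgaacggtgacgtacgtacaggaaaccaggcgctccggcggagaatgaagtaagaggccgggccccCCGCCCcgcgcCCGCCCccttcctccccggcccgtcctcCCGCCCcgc
Bcl2l11, chr2:128125788-128126037, plus strand: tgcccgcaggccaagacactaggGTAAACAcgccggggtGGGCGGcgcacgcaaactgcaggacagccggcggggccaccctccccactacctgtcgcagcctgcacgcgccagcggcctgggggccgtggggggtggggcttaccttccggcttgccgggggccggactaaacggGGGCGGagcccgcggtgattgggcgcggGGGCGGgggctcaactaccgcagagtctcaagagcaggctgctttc

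GC content was 47.6% in this Bcl2l1 window, 74.8% in the Bcl2 window and 72.0% in the Bcl2l11 window. The other windows of Bcl2l1 had 48.4% and 53.2%. The Bcl2 window held 7 GC boxes and the Bcl2l11 window 3, while none of the 3 windows of Bcl2l1 held one. A GC box was found in at least 1 window of 6 of the 9 members (Bad, Bcl2, Bcl2l11, Bcl2l2, Bid and Mcl1), and in 7 of 15 windows, against 32.7% of the 32851 windows of the table. The FOXO motif was found in 1 of the 15 windows, against 3.17% of all windows. The TATA box TATAAA and the STAT motif TTCNNNGAA were in 0 of 15 windows, against 12.4% and 7.02% of all. A match describes the letters and is no evidence of binding. Foxo3, a FOXO factor known to induce Bcl2l11, was at 23.5, 28.3 and 18.4 FPKM in irradiated and 14.3, 13.0 and 14.3 FPKM in control lung (log2 change 0.70 ± 0.15; limma adjusted p = 0.102). All irradiated values of Foxo3 lay above the controls, while those of Bcl2l11 overlapped them. A link of Foxo3 to the Bcl2l11 values was not tested.

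Of 53 other genes of the pathway in 4 lists, 48 passed the minimum level and 0 passed the test with limma, against 0.18% of all genes. At an unadjusted p under 0.05, 6 of the 48 were higher, against 7.41% of all genes, and 5 were lower, against 10.3%. Irradiated libraries lay above all controls for 9 of the 48 and below them for 9, against 9.91% and 14.6% of all genes. The median log2 change of the 48 was 0.01.

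Among 14 other BCL2 family genes, 10 were tested, with a median log2 change of 0.04. Pmaip1, a p53-induced partner of MCL1, was at 8.33, 10.2 and 7.97 FPKM in irradiated and 4.46, 4.20 and 6.66 FPKM in control lung (log2 change 0.70 ± 0.17; limma adjusted p = 0.125). Bbc3, also a p53 target, was at 5.39, 8.54 and 8.26 FPKM in irradiated and 6.76, 7.11 and 6.78 FPKM in control lung, with overlap. Bcl2l12 was at 7.83, 6.47 and 7.82 FPKM in irradiated and 9.36, 9.58 and 9.28 FPKM in control lung (−0.32 ± 0.10; limma adjusted p = 0.185). Bcl2l13, a mitochondrial outer membrane protein, had a log2 change of 0.14 with overlapping groups. The Bcl2a1 genes are near-identical copies whose values are uncertain, and Bcl2a1a, Bcl2a1b and Bcl2a1d had log2 changes of −0.18, −0.04 and −0.08. Hrk, Bcl2l10, Bcl2l15 and Bcl2a1c were under the minimum level.

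Downstream, the 14 genes of the apoptosome, the caspases and their inhibitors had a median log2 change of −0.01. Birc3, an inhibitor of apoptosis and NF-κB target, was at 16.1, 21.6 and 23.5 FPKM in irradiated and 13.8, 12.5 and 15.0 FPKM in control lung (0.52 ± 0.15; limma adjusted p = 0.162). Casp6, an executioner caspase, was at 11.7, 11.1 and 14.8 FPKM in irradiated and 15.6, 18.6 and 16.0 FPKM in control lung (−0.40 ± 0.13; limma adjusted p = 0.198). Apaf1, the scaffold of the apoptosome, had a log2 change of 0.26, and Diablo, a mitochondrial antagonist of apoptosis inhibitors, had one of −0.26, both without overlap of the groups.

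In the death receptor list, which acts upstream of Bid, 9 of 10 genes were tested with a median of 0.12, and Fasl was under the minimum. Tnfsf10, the death ligand TRAIL, had the smallest adjusted p of the 48 genes, at 20.6, 13.0 and 15.5 FPKM in irradiated and 37.3, 27.7 and 30.9 FPKM in control lung (−0.94 ± 0.18; limma adjusted p = 0.0844). The summed FPKM of 6 natural killer cell markers, a cell type that can express TRAIL, was 8.69 to 19.6 in irradiated and 35.5 to 44.6 in control lung, and their part in the Tnfsf10 values was not tested. Its receptor Tnfrsf10b was at 3.58, 2.19 and 2.38 FPKM in irradiated and 2.07, 1.55 and 2.15 FPKM in control lung (0.34 ± 0.18). Tnfrsf1a, a receptor for TNF, and Fadd, the adaptor that recruits caspase-8, had log2 changes of 0.22 and −0.19 without overlap of the groups.

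Among 15 regulators and partners the median log2 change was 0.00. After Foxo3 the smallest p belonged to Dynll2, a dynein light chain that tethers BMF, with a log2 change of −0.22. Akt1, a kinase that phosphorylates BAD, and Dynll1, which tethers BIM, had changes of 0.17 and −0.31. Their limma adjusted p was 0.339 for Dynll2, 0.352 for Akt1 and 0.355 for Dynll1. Groups did not overlap for Dynll2 and Akt1 and overlapped for Dynll1.

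**Figure D5:**
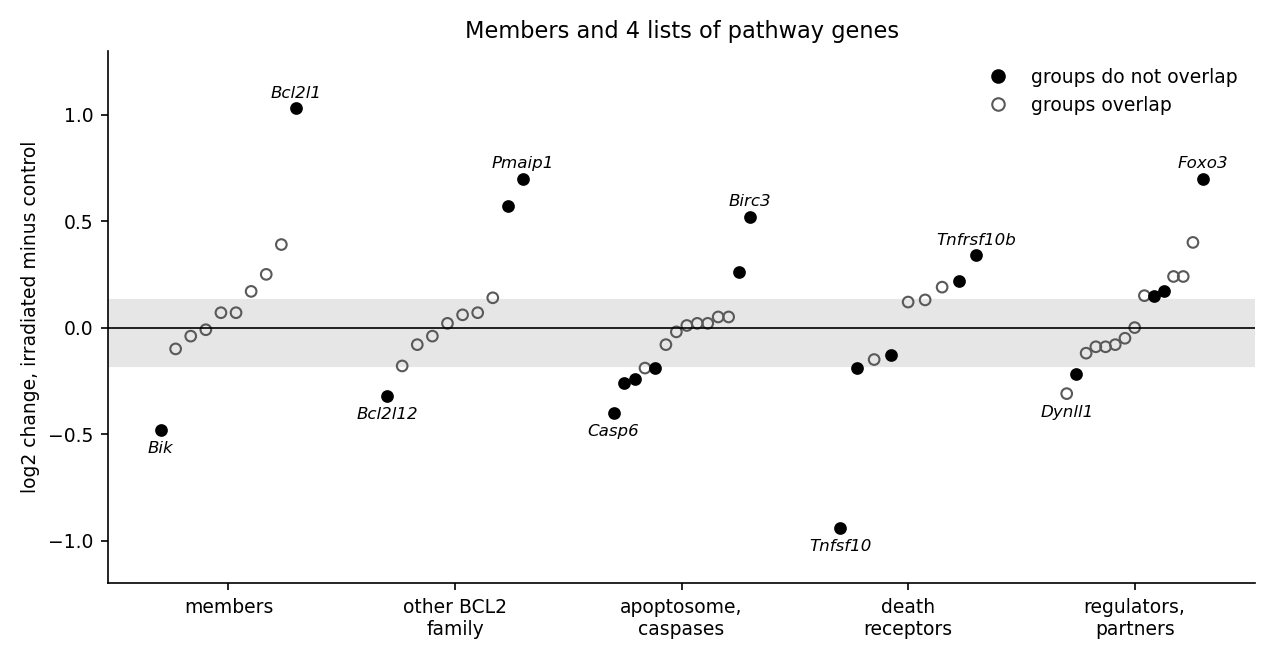
Log2 change, irradiated minus control (vertical axis), of the 10 members and of the 48 tested genes of 4 pathway lists, sorted within each list. Filled points are genes whose groups do not overlap, the band spans the middle 50% of all genes tested, and the highest and lowest gene of each list are named. No point passed the test over all genes.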

How the data were processed

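Each library has 1 table with, per the file headers, every gene's position, strand, coverage and abundance as FPKM and TPM, as StringTie writes it. Names that the submitters' processing notes list are GRCm39, fastp, DESeq2 and STAR 2.7.6a, with no role or order. For the quantifier, annotation and strand setting, the status is: not given in the sources used here. Without a strand setting, reads of overlapping genes on opposite strands cannot be told apart.

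FPKM as deposited by the authors were summed per gene over named entries. The coverage signal deposited by the authors was multiplied by the commonest ratio of FPKM to coverage in its library (scaled coverage), and the same ratio gave the depth. Each table also lists 22644 to 24988 assembled loci, which repeat the named genes' reads. TPM were not used. No counts are given, so no counting interval can be.

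limma 3.58.1 in R 4.3.3 was fitted with trend and robust variances to log2(FPKM + 1), with the group as its term, for the 13908 genes whose mean over all 6 libraries reached 1 FPKM. P-values are two-sided, Benjamini-Hochberg adjusted over these genes, and called under 0.05. The log2(FPKM + 1) scale understates changes of low genes. Values after ± beside a log2 change are standard errors. The fit was also run on simulated data with noise independent between genes and no outlying library. That run does not show how the fit behaves with libraries that stand apart, as here.

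The members, lists and tests were chosen with earlier results of these data known. Text names all members, overlapping genes and, per pathway list, at least the 4 genes with the smallest p. Further genes were chosen after their values were seen, as were the promoter motifs. Python 3.11.15, pandas 2.3.3 and numpy 2.4.6 were used.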

Additional observations from a re-analysis of the deposited data

How the results depend on the processing

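No member was called under any of the 16 alternatives tried (0 in each). Bcl2l1, Mcl1, Bcl2, Bid and Bik kept their direction in all that tested them. Over the alternatives the adjusted p lay between 0.0807 and 0.415 for Bcl2l1 and between 0.0717 and 0.460 for Bik. Small changes of other members turned sign. With a common sum, which moved the median of all genes by 0.111, Bcl2l2 was at 0.12, Bad at 0.03 and Bmf at 0.08, and the median of pro-death members was 0.13. With median-ratio scaling Bcl2l2 was at 0.03 and Bmf at 0.0027, and with a common sum without the 20 most abundant genes Bcl2l2 was at 0.0049. Without control 2 and irradiated 2 together Bmf was at 0.01. By scaled coverage, added after seeing the data, Bcl2l11 was at −0.13 and the pro-death to anti-death difference was −0.25 on the log2 scale. Leaving out 1 library at a time gave −0.06 to 0.04 for Bcl2l2, −0.0028 to 0.18 for Bak1, −0.13 to 0.21 for Bcl2l11, −0.11 to 0.06 for Bmf, and −0.65 to −0.38 for the log2 ratio of sums.

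The 25 genes called over the whole table, 9 higher and 16 lower, depended on the settings. There were 13 with a common sum (7 higher, 6 lower), 11 with median-ratio scaling (4 higher, 7 lower), 38 with a minimum of 5 FPKM and 9 without control 2 and irradiated 2 together (9 higher). Without a minimum 0 of 31967 genes were called, with 3531 at an unadjusted p under 0.05. Leaving out 1 library gave from 0 genes (without control 1 or control 3) through 1 (control 2), 3 (irradiated 2) and 100 (irradiated 1) to 116 (irradiated 3), and from 0 to 2 pathway genes, Bax and Foxo3 being called without irradiated 3. The cause was not tested.

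Deviations of same-numbered libraries from their group means correlated across genes at −0.17, −0.537 and −0.28 for replicates 1, 2 and 3. Those of unlike-numbered libraries correlated at −0.278 to 0.522. With 3 libraries per group, these values cannot decide whether the numbers pair the libraries, and the labels name no pairing. With the replicate block 0 genes were called, with 1623 at an unadjusted p under 0.05. Without counts, the counting error behind low members such as Bcl2 and Bid cannot be given, nor how it differs between the deepest and the shallowest library. Bcl2 and Bid were not tested with a minimum of 5 FPKM.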
